A study of Homo sapiens with 32 samples.

Results

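The DNA replication genes are 44 genes listed by symbol, with no threshold on a measured value, from the 32738 gene entries of the count table. They cover the steps from the marking of replication origins to the joining of the new strands: 9 genes act in origin licensing, 12 in the replicative helicase, 10 in DNA polymerases and primase, 6 in the sliding clamp and its loader, 5 in single-strand binding and flap processing, and 2 form ribonucleotide reductase. Their RNA was counted in HEK293 cells, a human embryonic kidney line, that had been given 4-thiouracil, a sulfur-bearing uracil analogue used to tag newly made RNA. The groups were cells at 0 min, 5 min, 15 min and 30 min of incubation, all of the same line, with 2 biological replicates each. The labels give no genotype difference between the groups, do not say what the 0 min cells received, and give no statement on whether tagged RNA was purified before library preparation. The sample titles begin with TTSeq, the name of a method, but no label describes its steps. Whether the same kind of RNA was sampled at 0 min and at the later times cannot be told from the labels.

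Each biological replicate, called a culture here, was read as 4 libraries (2 cDNA preparations with 2 libraries each). The counts of these libraries were summed, giving 8 cultures from 32 libraries. At the later times the labels give the libraries of a cDNA different tagmentation numbers. At 0 min they give them the same number, so the labelled layout differs between 0 min and the later times. Libraries of 1 cDNA were closer to each other than sampling alone would leave them (16 pairs, with 0.327 to 0.594 as the chi-square over its degrees of freedom) and were counted as 1 sample, so a summed count overstates the number of separate molecules. The same ratio was 1.74 to 3.76 between cDNAs of 1 culture and 2.68 to 3.48 between cultures of 1 time. The labels do not say more about how the replicates were kept apart, so the p-values cover no spread beyond that between these samples. The test shares its estimate of that spread across genes, so the p-value of a gene does not rest on its own cultures alone. Culture totals lay between 776871 and 1396056 counts. Levels are TMM-scaled CPM, a scale set from a trimmed mean over genes, on which the median gene can still move between times. The value after ± is a standard error for a log2 fold change and an SD for a level. The TMM factors were 1.10 to 1.23 at the later times and 0.637 to 0.684 at 0 min, so the scaling moves with every comparison against 0 min. Results with the total count alone as the scale are given for medians, sums and counts of calls. Log2 fold changes and calls of single genes are with TMM unless stated. Of the markers of HEK293 cells, KRT8, KRT18, VIM and NEFM were tested, INA was not, with 4 counts in all, and NEFL had no entry. VIM had 2814 counts over all cultures, while KRT8 had only 104, KRT18 74 and NEFM 55. Of these 4 tested genes, KRT8 and VIM were called lower at each later time. At 30 min against 0 min, VIM changed by -0.86 ± 0.18 and KRT8 by -2.09 ± 0.61. Of 13 markers of blood cells, fibroblasts, endothelium and hepatocytes, 9 had 0 counts in every culture, ALB among them. The summed counts per culture were 0 to 3 at the later times and 0 at 0 min for blood cells, 1 to 5 and 0 to 4 for fibroblasts, 0 at all times for endothelium, and 2 to 24 and 0 to 2 for hepatocytes. The hepatocyte counts were all of APOA1, which had 15 and 24 counts at 30 min and 2 and 0 at 0 min and was called higher (3.06 ± 1.11, edgeR's adjusted p 0.0189). The part of these markers in the members' results was not tested. In a pool of cells, fewer cells in S phase, less RNA per cell and a different part of the RNA being sampled cannot be told apart.

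Replication starts when the origin recognition complex, with CDC6 and CDT1, loads the MCM2-7 ring onto DNA in G1 phase, and CDC45 and the GINS complex later turn that ring into an active helicase. DNA polymerase alpha and primase lay down short primers, the clamp loader RFC places the PCNA ring at them, and DNA polymerases delta and epsilon extend them while RPA covers the exposed single strands. Many of these genes are transcribed in waves at the G1/S boundary under E2F transcription factors.

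Most of the replication genes stood lower after the label than at 0 min, and a smaller group stood higher. In 5 min against 0 min cells, edgeR's quasi-likelihood test with Benjamini-Hochberg adjustment at 0.05 called 7 of 43 tested members higher, beside 28.7% of all genes tested, and 24 lower, beside 26.0% of all genes tested. In 15 min against 0 min cells it called 8 higher (29.8% of all genes) and 24 lower (24.6% of all genes). In 30 min against 0 min cells it called 8 higher (32.1% of all genes) and 26 lower (23.8% of all genes). The median log2 fold change of the members was -0.84 at 5 min, -0.77 at 15 min and -0.85 at 30 min, while over all 10439 genes tested it was 0.10, 0.19 and 0.35 at those times. These 3 comparisons share their 0 min cultures, so a culture at 0 min that stood apart would enter all of them. Cultures of 2 times that do not overlap were common. Over all 10439 genes, 4042 stood higher and 3654 lower without overlap at 5 min, 4390 and 3540 at 15 min, and 4785 and 3316 at 30 min. Among the members these were 8 and 27, 8 and 29, and 8 and 26. Overlap is therefore given below as description only.

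The scale matters for the direction. When only the total count of each culture set the scale, the median of all genes moved up by 0.73, 0.77 and 0.88 on the log2 scale at 5, 15 and 30 min, and the members' median became -0.10 at 5 min but 0.01 at 15 min and 0.03 at 30 min. Set against the median of all genes, the members' median was lower, with a difference of -0.94 (TMM) at 5 min, -0.96 at 15 min and -1.20 at 30 min. A change of scale shifts the members and all genes nearly alike. A similar difference in both scalings was thus fixed in advance and is no support. Every alternative tried gave between -1.02 and -0.69 at 5 min, -1.06 and -0.91 at 15 min, and -1.22 and -1.04 at 30 min. These alternatives include the other scalings, to which the same limit applies. The end at -0.69 came from no filter, where the median is over 18789 genes, a different set. A member called lower with TMM is lower relative to the median of all genes, which is not the same as a smaller share of all counts. That median was itself positive at each later time, so a higher call does not test a member against it. With total counts only, the sign of a lower call turned for ORC3 at 15 min and for ORC4, GINS3 and PRIM1 at 30 min against 0 min, as well as for some clamp loader genes. Over all 6 comparisons, 70 member calls held with total counts only, 26 kept their sign but were no longer called, and 11 reversed. Among the alternatives, the change at 30 min against 0 min reached -0.0034 for RRM2, -0.08 for PCNA, -0.19 for POLE3 and CDC6 and -0.20 for MCM5. For RPA3 it went no higher than -1.56. Summed over all 44 genes, the level was 10685 ± 271 CPM in 0 min cells, 5797 ± 80.5 CPM after 5 min, 5939 ± 128 CPM after 15 min and 5942 ± 133 CPM after 30 min (SD, n = 2 cultures each). As CPM of the total count it was 7011 ± 171 in 0 min cells, 6321 ± 85.1 after 5 min, 6647 ± 148 after 15 min and 7139 ± 84.5 after 30 min, so the share of all counts held by these genes ended close to where it began.

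**Figure D1:**
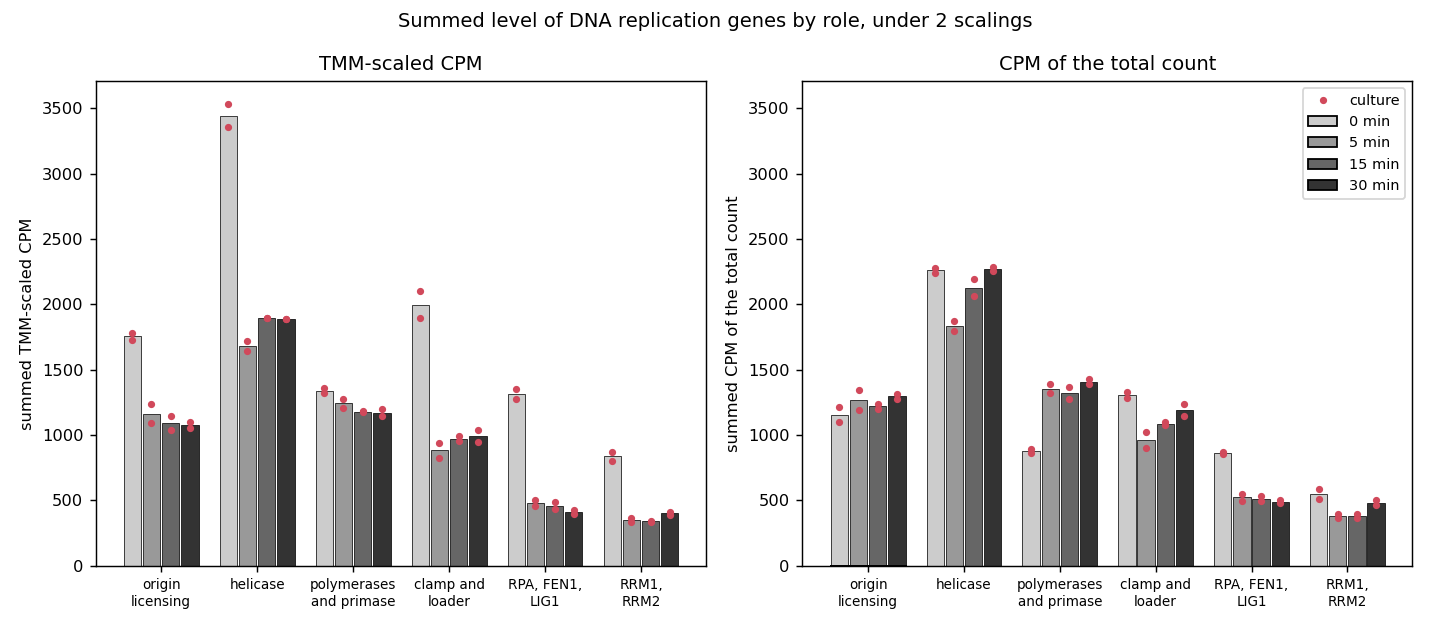
Summed level of the DNA replication genes of each role at 0, 5, 15 and 30 min, as TMM-scaled CPM (left) and as CPM of the total count (right); bars are means of 2 cultures and points are the cultures. RPA, FEN1 and LIG1 together are lower at every later time than at 0 min in both panels (479 CPM at 5 min against 1314 CPM at 0 min with TMM scaling, and 522 against 862 CPM of the total), while polymerases and primase are higher at the later times only as CPM of the total count.

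**Figure D2:**
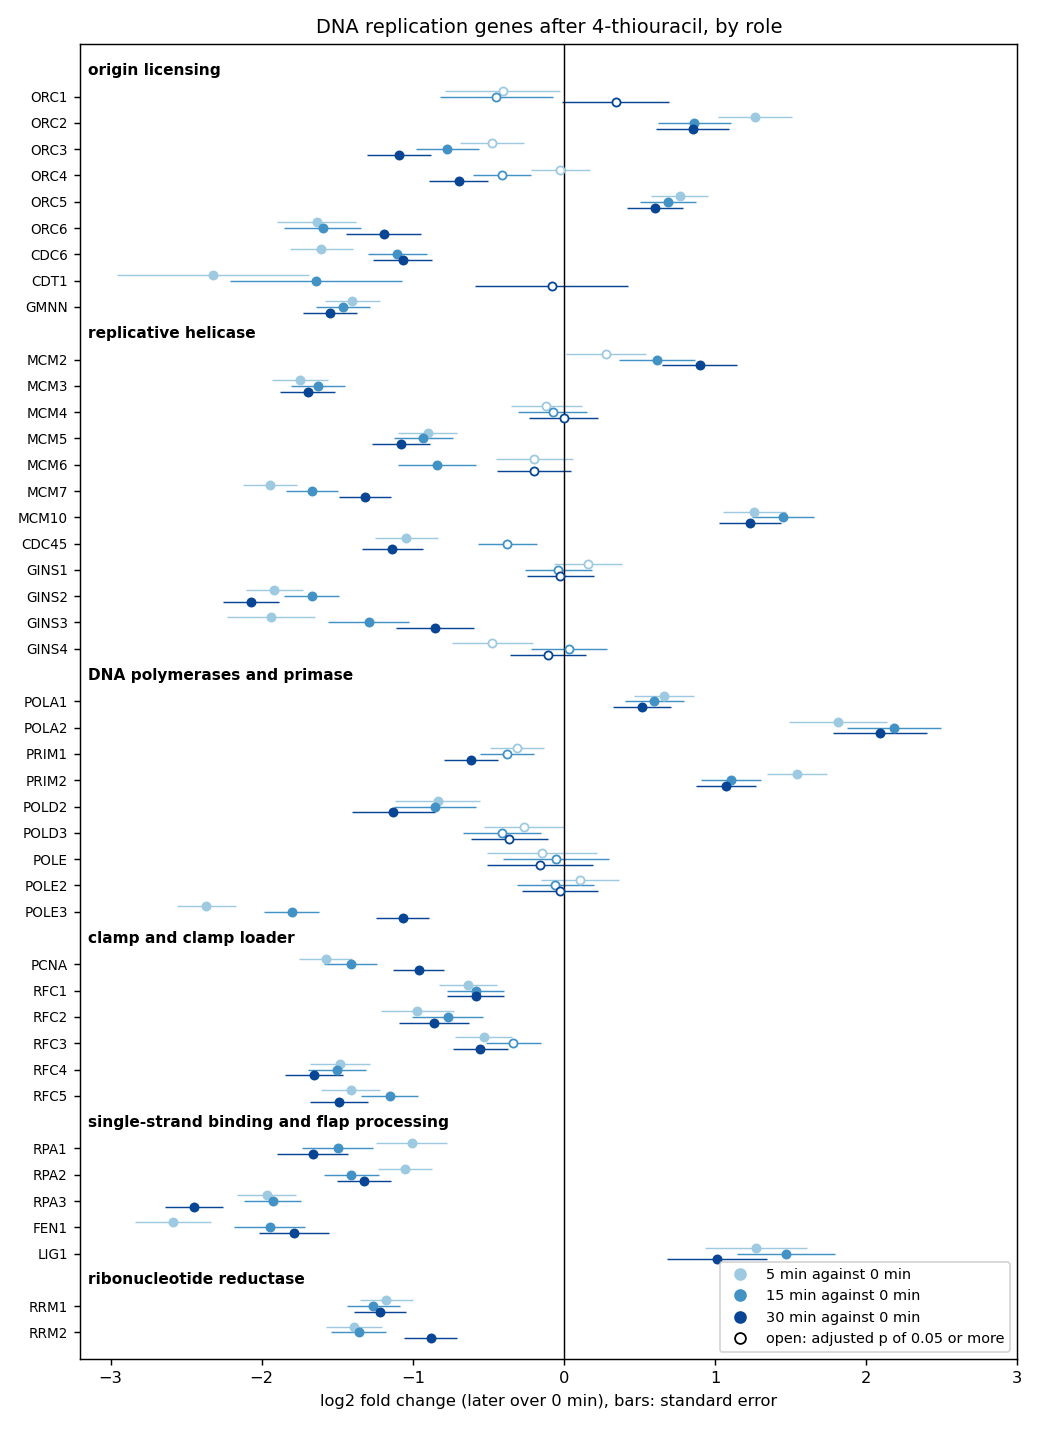
Log2 fold change of each tested DNA replication gene at 5, 15 and 30 min against 0 min, grouped by role; bars are standard errors and open points have an adjusted p of 0.05 or more. Points of the clamp, loader, RPA and ribonucleotide reductase genes lie left of 0, and ORC2, ORC5, MCM10, POLA1, POLA2, PRIM2 and LIG1 lie right of it at all 3 times with TMM scaling.

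Promoter sequence was set beside these changes because E2F sites are the best-known shared feature of replication genes. RefSeq promoters (GRCh38.p14, 250 bases before to 50 after the start) were found for 38 of the 44 genes, with 50 promoters in all. A core E2F motif, taken as TTTCCCGC, TTTGGCGC, TTTCGCGC or TTTGCCGC on either strand, was in 18 of the 50 promoters (36%), against 3.315% of all 35116 promoters in the table. CCAAT on either strand was in 56% of the members' promoters against 34.61% of all, and the GC box GGGCGG on either strand in 74% against 44.95%; motifs were counted separately even where they overlap. By gene, the E2F motif was found for 3 of the 7 members called higher at all 3 times and for 7 of the 18 with a promoter among those called lower at all 3 times. The 120 bases before the start are shown for members that moved in different ways, with the E2F match in capitals: CDT1 and MCM7 were called higher at 30 min than at 5 min, GINS2 was lower at every time than at 0 min, POLA2 was higher at every time, PCNA is the clamp, and POLE3 has no match.
CDT1 (chr16:88803669-88803788, plus strand): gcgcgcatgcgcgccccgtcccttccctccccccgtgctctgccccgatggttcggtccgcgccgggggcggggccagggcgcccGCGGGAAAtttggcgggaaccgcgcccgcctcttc
MCM7 (chr7:100101398-100101517, minus strand): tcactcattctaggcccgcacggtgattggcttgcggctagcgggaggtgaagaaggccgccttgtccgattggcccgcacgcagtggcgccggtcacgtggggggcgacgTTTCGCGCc
GINS2 (chr16:85688955-85689074, minus strand): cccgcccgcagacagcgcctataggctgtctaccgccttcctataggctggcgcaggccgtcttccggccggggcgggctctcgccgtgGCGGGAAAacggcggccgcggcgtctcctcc
PCNA (chr20:5126623-5126742, minus strand): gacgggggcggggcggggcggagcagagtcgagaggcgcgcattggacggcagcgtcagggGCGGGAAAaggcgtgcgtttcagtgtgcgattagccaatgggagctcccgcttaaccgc
POLA2 (chr11:65261842-65261961, plus strand): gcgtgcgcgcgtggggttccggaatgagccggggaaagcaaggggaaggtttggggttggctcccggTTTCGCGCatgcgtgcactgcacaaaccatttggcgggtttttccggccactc
POLE3 (chr9:113410750-113410869, minus strand): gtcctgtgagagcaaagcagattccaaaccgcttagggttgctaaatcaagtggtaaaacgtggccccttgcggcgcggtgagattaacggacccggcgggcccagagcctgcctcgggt
A matched motif lay 35 bases before the start in CDT1, 9 in MCM7, 31 in GINS2, 59 in PCNA and 53 in POLA2. PCNA and POLA2 thus both carry a match in the promoter shown, although PCNA was called lower and POLA2 higher against 0 min. MCM7 and PCNA have other promoters, not shown, that held no E2F match. POLE3 held none in any of its promoters. A match describes letters in the window and says nothing here on binding.

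Origin licensing genes split between subunits of the same complex. Of 9 tested, 2 were called higher and 4 lower at 5 min, 2 higher and 5 lower at 15 min, and 2 higher and 5 lower at 30 min, and the group's median log2 fold change at 30 min against 0 min was -0.70. These counts are 22.2% higher at each time, and 44.4%, 55.6% and 55.6% lower at 5, 15 and 30 min. Of all genes, 28.7%, 29.8% and 32.1% were called higher, and 26.0%, 24.6% and 23.8% lower. ORC2, a core subunit of the origin recognition complex, had 90.6 and 49.4 CPM in the 0 min cultures, 160.5 and 182 at 5 min, 139.6 and 120.4 by 15 min, and 114 and 144 after 30 min. The ORC2 log2 fold changes against 0 min, 1.26 ± 0.24 (5 min), 0.86 ± 0.24 (15 min) and 0.85 ± 0.24 (30 min), had adjusted p-values of 3.65e-05, 0.00299 and 0.0031. All later cultures were above both 0 min cultures, which themselves lay far apart. ORC5, another core subunit, had 166 and 144 CPM in the 0 min cultures, 256 and 271 at 5 min, 253 and 248 by 15 min, and 226 and 245 after 30 min. The ORC5 log2 fold changes against 0 min, 0.76 ± 0.19 (5 min), 0.69 ± 0.19 (15 min) and 0.60 ± 0.19 (30 min), were all called higher, and no later culture overlapped the 0 min cultures.

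ORC6, the smallest subunit, went the other way, with 178 and 175 CPM in the 0 min cultures, 56.6 and 56.5 at 5 min, 57.5 and 58.8 by 15 min, and 102 and 51.6 after 30 min. The ORC6 log2 fold changes against 0 min, -1.64 ± 0.26 (5 min), -1.60 ± 0.25 (15 min) and -1.19 ± 0.25 (30 min), were all called lower. The cultures at 5 and 15 min were almost equal, while 1 culture at 30 min stood well above its partner yet still below both at 0 min. CDC6, the ATPase that joins the origin recognition complex to load the helicase, had 331 and 359.9 CPM in the 0 min cultures, 89.7 and 133 at 5 min, 134 and 188 by 15 min, and 162 and 168 after 30 min. The CDC6 log2 fold changes against 0 min, -1.60 ± 0.21 (5 min), -1.10 ± 0.20 (15 min) and -1.07 ± 0.19 (30 min), were called lower each time, with the 5 min cultures lowest. GMNN, encoding geminin, which binds CDT1 and blocks a second loading, had the highest count of this group, with 573 and 609 CPM in the 0 min cultures, 214 and 232 at 5 min, 187 and 243 by 15 min, and 217 and 186 after 30 min. The GMNN log2 fold changes against 0 min, -1.40 ± 0.18 (5 min), -1.46 ± 0.18 (15 min) and -1.55 ± 0.18 (30 min), were called lower each time, and its later cultures all lay below both 0 min cultures. The highest adjusted p among ORC6, CDC6 and GMNN in these comparisons was 0.000101 (ORC6 at 30 min).

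CDT1, the loader that geminin holds in check, rested on few counts (144 in all). It had 19.3 and 29.3 CPM in the 0 min cultures, 2.36 and 6.36 at 5 min, 7.11 and 8.21 by 15 min, and 28.2 and 17.2 after 30 min. Its change at 5 min against 0 min was -2.32 ± 0.63 and at 15 min -1.64 ± 0.57, both called lower, while at 30 min it was -0.08 ± 0.51 with an adjusted p of 0.905. The 30 min cultures overlapped those at 0 min and lay above both at 5 min and both at 15 min. ORC3 and ORC4 were not called at 5 min against 0 min but were at 30 min. ORC4, an ATPase of the origin recognition complex, had 189.8 and 179 CPM in the 0 min cultures, 185 and 179 at 5 min, 128 and 149.8 by 15 min, and 108 and 119.9 after 30 min. At 5 min its cultures overlapped those at 0 min, and only at 30 min against 0 min was it called lower (-0.70 ± 0.19, adjusted p 0.00267). ORC3, a core subunit, had 176 and 161 CPM in the 0 min cultures, 107 and 134 at 5 min, 103 and 94.4 by 15 min, and 87.1 and 71.3 after 30 min. It was called lower at 15 min (-0.77 ± 0.21) and 30 min (-1.09 ± 0.21) but not at 5 min (-0.47 ± 0.21), and its cultures did not overlap those at 0 min at any time. ORC1, the largest subunit, passed no test against 0 min; its changes lay between -0.45 and 0.34, and its 0 min cultures, 59.2 and 24.7 CPM, were far apart.

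Within the MCM2-7 ring, which needs its 6 subunits together, the counts did not move as one. Of the 12 helicase genes, 1 was called higher and 6 lower at 5 min, 2 higher and 6 lower at 15 min, and 2 higher and 6 lower at 30 min, with a group median of -0.53 at 30 min against 0 min. These counts are 8.33%, 16.7% and 16.7% higher at 5, 15 and 30 min, and 50% lower at each time. Of all genes, 28.7%, 29.8% and 32.1% were called higher, and 26.0%, 24.6% and 23.8% lower. MCM7, the ring subunit with the most counts here, had 1104 and 1162 CPM in the 0 min cultures, 301 and 288 at 5 min, 357 and 356 by 15 min, and 477 and 432 after 30 min. The MCM7 log2 fold changes against 0 min, -1.94 ± 0.18 (5 min), -1.67 ± 0.17 (15 min) and -1.32 ± 0.17 (30 min), were all called lower, with the 5 min cultures lowest and no overlap with 0 min. MCM3 had 586 and 536 CPM in the 0 min cultures, 149.9 and 182 at 5 min, 162 and 202 by 15 min, and 174 and 172 after 30 min. The MCM3 log2 fold changes against 0 min, -1.75 ± 0.18 (5 min), -1.63 ± 0.18 (15 min) and -1.70 ± 0.18 (30 min), were all called lower, and its later cultures all lay far below both 0 min cultures. MCM5, the neighbour of MCM2 in the ring, had 294 and 247 CPM in the 0 min cultures, 151 and 139.9 at 5 min, 120.2 and 165 by 15 min, and 137 and 119.9 after 30 min. The MCM5 log2 fold changes against 0 min, -0.90 ± 0.20 (5 min), -0.93 ± 0.19 (15 min) and -1.08 ± 0.19 (30 min), were all called lower, again with no overlap with 0 min. MCM2 differed from these. It had 50.8 and 72.6 CPM in the 0 min cultures, 70.8 and 76.3 at 5 min, 105 and 81.4 by 15 min, and 117 and 110.0 after 30 min, and was called higher at 15 min (0.62 ± 0.25, adjusted p 0.0397) and 30 min (0.90 ± 0.25, adjusted p 0.0027). At 5 min its cultures overlapped the 0 min cultures.

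MCM4, which passed no test, had 93.1 and 127 CPM in the 0 min cultures, 111 and 91.8 at 5 min, 117 and 89.6 by 15 min, and 107 and 111 after 30 min. Its cultures overlapped at all times. MCM6 was called lower only at 15 min (-0.84 ± 0.26, adjusted p 0.0058), and its 0 min cultures, 85.8 and 173 CPM, were far apart. MCM10, which is not part of the ring but is needed to fire the loaded helicase, was called higher at all 3 times. It had 170.4 and 116 CPM in the 0 min cultures, 286 and 401 at 5 min, 419.6 and 369.9 by 15 min, and 320.1 and 358 after 30 min. The MCM10 log2 fold changes against 0 min, 1.26 ± 0.21 (5 min), 1.45 ± 0.21 (15 min) and 1.23 ± 0.21 (30 min), had adjusted p-values of at most 4.66e-06, and all later cultures lay above both 0 min cultures.

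The GINS complex and CDC45 complete the active helicase. GINS2 had 475 and 618 CPM in the 0 min cultures, 151 and 138 at 5 min, 160.3 and 183 by 15 min, and 126 and 133 after 30 min. The GINS2 log2 fold changes against 0 min, -1.92 ± 0.19 (5 min), -1.67 ± 0.18 (15 min) and -2.07 ± 0.18 (30 min), were all called lower, with no overlap with 0 min. GINS3 had 99.1 and 107 CPM in the 0 min cultures, 23.6 and 29 at 5 min, 41.4 and 42.4 by 15 min, and 54.1 and 59.6 after 30 min. The GINS3 log2 fold changes against 0 min, -1.94 ± 0.29 (5 min), -1.29 ± 0.27 (15 min) and -0.85 ± 0.26 (30 min), were all called lower, and its cultures at each later time stayed below both at 0 min. GINS1 and GINS4, the remaining subunits, passed no test against 0 min; GINS1 lay between 91.9 and 120.1 CPM in every culture, and GINS4 between 55.8 and 104 CPM. CDC45 had 210.3 and 171 CPM in the 0 min cultures, 90.9 and 94.7 at 5 min, 155 and 141 by 15 min, and 90.7 and 83.6 after 30 min. It was called lower at 5 min (-1.04 ± 0.21) and 30 min (-1.14 ± 0.20), whereas at 15 min it stood at -0.38 ± 0.20 with an adjusted p of 0.105. Its 15 min cultures lay between those at 0 min and those at the other times.

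Among the polymerases and primase, every higher call was in the polymerase alpha and primase complex. Of 9 tested genes, 3 were called higher at each time, 2 lower at 5 and at 15 min, and 3 lower at 30 min, and the group's median at 30 min against 0 min was -0.16. These shares, 33.3% higher at each time and 22.2%, 22.2% and 33.3% lower, lay near those of all genes (28.7%, 29.8% and 32.1% higher, and 26.0%, 24.6% and 23.8% lower), so the counts are no result about this role. POLA2, the accessory B subunit of polymerase alpha, had 19.3 and 21.6 CPM in the 0 min cultures, 57.8 and 83.4 at 5 min, 93.7 and 92.3 by 15 min, and 93.7 and 80.5 after 30 min. The POLA2 log2 fold changes against 0 min, 1.81 ± 0.33 (5 min), 2.19 ± 0.31 (15 min) and 2.09 ± 0.31 (30 min), were the largest increases of any member, and no later culture came near the 0 min cultures. PRIM2, the large primase subunit, had 108 and 120.5 CPM in the 0 min cultures, 373 and 292 at 5 min, 247 and 243 by 15 min, and 237 and 241 after 30 min. The PRIM2 log2 fold changes against 0 min, 1.54 ± 0.20 (5 min), 1.11 ± 0.20 (15 min) and 1.07 ± 0.20 (30 min), were called higher at every time, with no overlap with 0 min. POLA1, the catalytic subunit of polymerase alpha, had 121 and 128 CPM in the 0 min cultures, 185 and 207 at 5 min, 180.4 and 196 by 15 min, and 186 and 170.3 after 30 min. The POLA1 log2 fold changes against 0 min, 0.66 ± 0.20 (5 min), 0.60 ± 0.19 (15 min) and 0.52 ± 0.19 (30 min), were called higher each time, and the highest adjusted p among POLA1, POLA2 and PRIM2 was 0.023 (POLA1 at 30 min). Every later POLA1 culture was above both 0 min cultures. On the same scale the median of all genes was 0.35 at 30 min, and POLA1 was not tested against it.

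PRIM1, which makes the RNA primer and is the partner of PRIM2, had the most counts in this group and was not called higher at any time. It had 400.1 and 348 CPM in the 0 min cultures, 322 and 283 at 5 min, 297 and 280.4 by 15 min, and 217 and 272 after 30 min, and it was called lower only at 30 min against 0 min (-0.61 ± 0.18, adjusted p 0.00388). Its cultures did not overlap those at 0 min at any later time. POLE3, a histone-fold subunit of polymerase epsilon, had 369.8 and 388 CPM in the 0 min cultures, 68.4 and 77 at 5 min, 109.9 and 107 by 15 min, and 179 and 182 after 30 min. The POLE3 log2 fold changes against 0 min, -2.37 ± 0.20 (5 min), -1.80 ± 0.18 (15 min) and -1.07 ± 0.17 (30 min), had adjusted p-values of at most 3.03e-06. The 5 min cultures were lowest, those at 15 min higher and those at 30 min higher again, yet all below both at 0 min.

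POLD2, the B subunit of polymerase delta, had 94.3 and 122 CPM in the 0 min cultures, 74.3 and 48.7 at 5 min, 58.2 and 60.9 by 15 min, and 60.1 and 38.1 after 30 min. The POLD2 log2 fold changes against 0 min, -0.84 ± 0.28 (5 min), -0.85 ± 0.27 (15 min) and -1.13 ± 0.27 (30 min), were called lower, with adjusted p-values of 0.0116, 0.00822 and 0.000699, and no later culture overlapped those at 0 min. POLD3, POLE and POLE2, which are a further delta subunit, the catalytic subunit of epsilon and its B subunit, passed no test against 0 min; their changes lay between -0.41 (POLD3 at 15 min) and 0.11 (POLE2 at 5 min). POLD1, the catalytic subunit of polymerase delta, was too sparse to test. It had 0 counts over both 0 min cultures, 5 over those at 5 min, 14 at 15 min and 7 at 30 min. A count of 0 allows up to 3 counts, equal to 2.02 CPM at 0 min, for counting error only.

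No clamp or clamp loader gene was called higher against 0 min. Of 6 genes, 6 were called lower at 5 min, 5 at 15 min and 6 at 30 min with TMM scaling, and the group's median at 30 min against 0 min was -0.91. Of all genes, 26.0%, 24.6% and 23.8% were called lower at these times, and 28.7%, 29.8% and 32.1% higher. With total counts only, RFC1 reversed at all 3 times, RFC2 at 15 and 30 min, and RFC3 at 5 and 30 min. PCNA, the sliding clamp that holds the polymerases on DNA and the most counted gene of this group, had 684 and 732 CPM in the 0 min cultures, 259.6 and 217 at 5 min, 259.9 and 272 by 15 min, and 376 and 350.4 after 30 min. The PCNA log2 fold changes against 0 min, -1.58 ± 0.18 (5 min), -1.41 ± 0.17 (15 min) and -0.96 ± 0.17 (30 min), were called lower each time, and all later cultures were below both 0 min cultures. RFC4, a small loader subunit, had 306 and 388 CPM in the 0 min cultures, 136 and 114 at 5 min, 113 and 131 by 15 min, and 119 and 101 after 30 min. The RFC4 log2 fold changes against 0 min, -1.48 ± 0.20 (5 min), -1.50 ± 0.19 (15 min) and -1.65 ± 0.19 (30 min), were called lower each time, with no overlap with 0 min. RFC5, another small subunit, had 278 and 331 CPM in the 0 min cultures, 101 and 124 at 5 min, 142 and 131 by 15 min, and 109 and 107 after 30 min. The RFC5 log2 fold changes against 0 min, -1.41 ± 0.20 (5 min), -1.15 ± 0.19 (15 min) and -1.49 ± 0.19 (30 min), were called lower too, and its cultures at 15 min were the nearest to 0 min.

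RFC2 had 149 and 136 CPM in the 0 min cultures, 88.5 and 60.1 at 5 min, 93.7 and 73.2 by 15 min, and 83.5 and 73.8 after 30 min. The RFC2 log2 fold changes against 0 min, -0.97 ± 0.24 (5 min), -0.77 ± 0.23 (15 min) and -0.86 ± 0.23 (30 min), were called lower with TMM scaling, and no later culture overlapped the 0 min cultures. RFC1, the large subunit, had 204 and 242 CPM in the 0 min cultures, 156 and 133 at 5 min, 151 and 146 by 15 min, and 153 and 144 after 30 min. The RFC1 log2 fold changes against 0 min, -0.63 ± 0.19 (5 min), -0.58 ± 0.19 (15 min) and -0.58 ± 0.19 (30 min), were called lower with TMM scaling, with every later culture below both at 0 min. RFC3 was called lower at 5 min (-0.53 ± 0.19) and 30 min (-0.56 ± 0.18) but not at 15 min (-0.33 ± 0.18, adjusted p 0.118). It had 271 and 272 CPM in the 0 min cultures, 199 and 177 at 5 min, 195 and 236 by 15 min, and 197 and 172 after 30 min, and its later cultures all lay below both 0 min cultures.

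Of the 5 genes for single-strand binding and flap processing, 4 were called lower and 1 higher at every time against 0 min, and the group's median at 30 min was -1.66. These counts are 80% lower and 20% higher. Of all genes, 26.0%, 24.6% and 23.8% were called lower at 5, 15 and 30 min, and 28.7%, 29.8% and 32.1% higher. RPA3, the smallest RPA subunit and the most counted gene here, had 500.4 and 551 CPM in the 0 min cultures, 133 and 135 at 5 min, 113 and 163 by 15 min, and 99.7 and 92.8 after 30 min. The RPA3 log2 fold changes against 0 min, -1.97 ± 0.19 (5 min), -1.93 ± 0.19 (15 min) and -2.45 ± 0.19 (30 min), included the largest decrease of any member at 30 min, and no later culture came near the 0 min cultures. RPA2 had 322 and 354 CPM in the 0 min cultures, 159 and 165 at 5 min, 134 and 120.4 by 15 min, and 136 and 133 after 30 min. The RPA2 log2 fold changes against 0 min, -1.05 ± 0.18 (5 min), -1.41 ± 0.18 (15 min) and -1.32 ± 0.18 (30 min), were called lower, and all later cultures lay below both 0 min cultures. RPA1, the large subunit that holds most of the DNA contacts, had 146 and 188 CPM in the 0 min cultures, 80.2 and 84.8 at 5 min, 53.7 and 64.3 by 15 min, and 55.9 and 49.2 after 30 min. The RPA1 log2 fold changes against 0 min, -1.01 ± 0.23 (5 min), -1.50 ± 0.23 (15 min) and -1.66 ± 0.23 (30 min), were all called lower, with both 0 min cultures above all others.

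FEN1, the nuclease that trims flaps from Okazaki fragments, had 286 and 230.1 CPM in the 0 min cultures, 26 and 55.8 at 5 min, 67.2 and 67 by 15 min, and 73.9 and 76.2 after 30 min. The FEN1 log2 fold changes against 0 min, -2.59 ± 0.25 (5 min), -1.95 ± 0.23 (15 min) and -1.79 ± 0.23 (30 min), included the largest decrease of any member at 5 min. The later cultures were all far below the 0 min cultures, and the 2 cultures at 5 min differed by a factor that the later pairs did not show. Exons of FEN1 overlap those of FADS2 on the same strand and of TMEM258 on the other, and how the counts treated strand is not given; TMEM258 had 1012 counts at 30 min and 2466 at 0 min. LIG1, the ligase that seals the fragments, stood higher after the label. It had 20.5 and 29.3 CPM in the 0 min cultures, 57.8 and 60.8 at 5 min, 62.7 and 73.9 by 15 min, and 57.1 and 42.4 after 30 min. The LIG1 log2 fold changes against 0 min, 1.27 ± 0.34 (5 min), 1.47 ± 0.32 (15 min) and 1.02 ± 0.33 (30 min), were called higher. Its cultures at every later time lay above both at 0 min, and its adjusted p-values were at most 0.00949.

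RRM1 and RRM2, the large and small subunits of ribonucleotide reductase, which makes deoxyribonucleotides, were both called lower at every time. Of all genes, 26.0%, 24.6% and 23.8% were called lower at 5, 15 and 30 min. RRM1 had 477 and 473 CPM in the 0 min cultures, 195 and 224 at 5 min, 192 and 204 by 15 min, and 199 and 209.6 after 30 min. The RRM1 log2 fold changes against 0 min, -1.18 ± 0.18 (5 min), -1.26 ± 0.17 (15 min) and -1.22 ± 0.17 (30 min), had no overlap with 0 min, with both 0 min cultures above all others. RRM2 had 392 and 332 CPM in the 0 min cultures, 138 and 138 at 5 min, 150.0 and 133 by 15 min, and 189.8 and 204 after 30 min. The RRM2 log2 fold changes against 0 min, -1.39 ± 0.19 (5 min), -1.36 ± 0.18 (15 min) and -0.88 ± 0.18 (30 min), were of the same sign, and all later cultures stayed below 0 min. The highest adjusted p of the 2 genes with TMM scaling was 6.68e-05 (RRM2 at 30 min). Among the alternatives, the RRM2 change at 30 min against 0 min reached -0.0034.

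Between labelled times the members changed far less. In 30 min against 5 min cells, edgeR called 6 of 43 members higher, beside 5.88% of all genes tested, and 2 lower, beside 6.52% of all genes tested. The members' median log2 fold change was -0.04, against -0.03 for all genes. Without overlap between cultures, 10 members stood higher and 13 lower, beside 2762 and 3131 of all 10439 genes. In 15 min against 5 min cells, it called 0 members higher (1.03% of all genes) and 0 lower (0.517% of all genes), with 9 members at an unadjusted p under 0.05 and 0 called by DESeq2 in either direction. In 30 min against 15 min cells, it called 1 member higher (2.26% of all genes) and 1 lower (2.78% of all genes), which were POLE3 and CDC45.

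POLE3 had the smallest adjusted p among the 30 min against 5 min calls. It averaged 180.5 ± 2.12 CPM at 30 min and 72.7 ± 6.05 CPM at 5 min (SD, n = 2 cultures each), a log2 fold change of 1.30 ± 0.19 with an adjusted p of 1.36e-05. Both 30 min cultures were above both 15 min cultures as well, with 0.73 ± 0.18 (adjusted p 0.0109). The call against 5 min held in all 15 alternatives tried, while that against 15 min held in 11 of 15. CDC45 averaged 87.1 ± 5 CPM at 30 min and 148 ± 9.64 CPM at 15 min, a change of -0.76 ± 0.20 (adjusted p 0.0155) that held in 10 of 15 alternatives. Leaving out any 1 culture of 15 or 30 min ended both of these calls between 30 and 15 min.

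CDT1 averaged 22.7 ± 7.79 CPM at 30 min and 4.36 ± 2.83 CPM at 5 min, a change of 2.24 ± 0.60 (adjusted p 0.0112). GINS3 averaged 56.8 ± 3.95 CPM at 30 min and 26.3 ± 3.79 CPM at 5 min, a change of 1.09 ± 0.29 (adjusted p 0.0106). In both genes the 30 min cultures lay above both 5 min cultures. FEN1 averaged 75 ± 1.67 CPM at 30 min and 40.9 ± 21.1 CPM at 5 min, a change of 0.80 ± 0.26 (adjusted p 0.0388). MCM7 averaged 455 ± 31.6 CPM at 30 min and 295 ± 8.97 CPM at 5 min, a change of 0.63 ± 0.17 (adjusted p 0.0149). PCNA, in turn, averaged 363 ± 18.1 CPM at 30 min and 238 ± 30.2 CPM at 5 min, a change of 0.62 ± 0.18 (adjusted p 0.0174). The 30 min cultures of FEN1, MCM7 and PCNA were each above both 5 min cultures, and still below both 0 min cultures.

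ORC4 and ORC3 were the members called lower. ORC4 averaged 114 ± 8.33 CPM at 30 min and 182 ± 4.62 CPM at 5 min, a change of -0.67 ± 0.19 (adjusted p 0.015). ORC3 averaged 79.2 ± 11.2 CPM at 30 min and 120.5 ± 18.5 CPM at 5 min, a change of -0.62 ± 0.21 (adjusted p 0.0488), with both 30 min cultures below both 5 min cultures in each gene. The number of members called higher was 1 without culture 1 at 30 min, 2 without culture 2 at 30 min and 2 without culture 1 at 5 min, and up to 8 without others. The ORC3 call held in 4 of 15 alternatives, ORC4 in 9, FEN1 in 10, MCM7 in 11, and GINS3 and PCNA in 12 each. CDT1 held in 12 of 14.

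**Figure D3:**
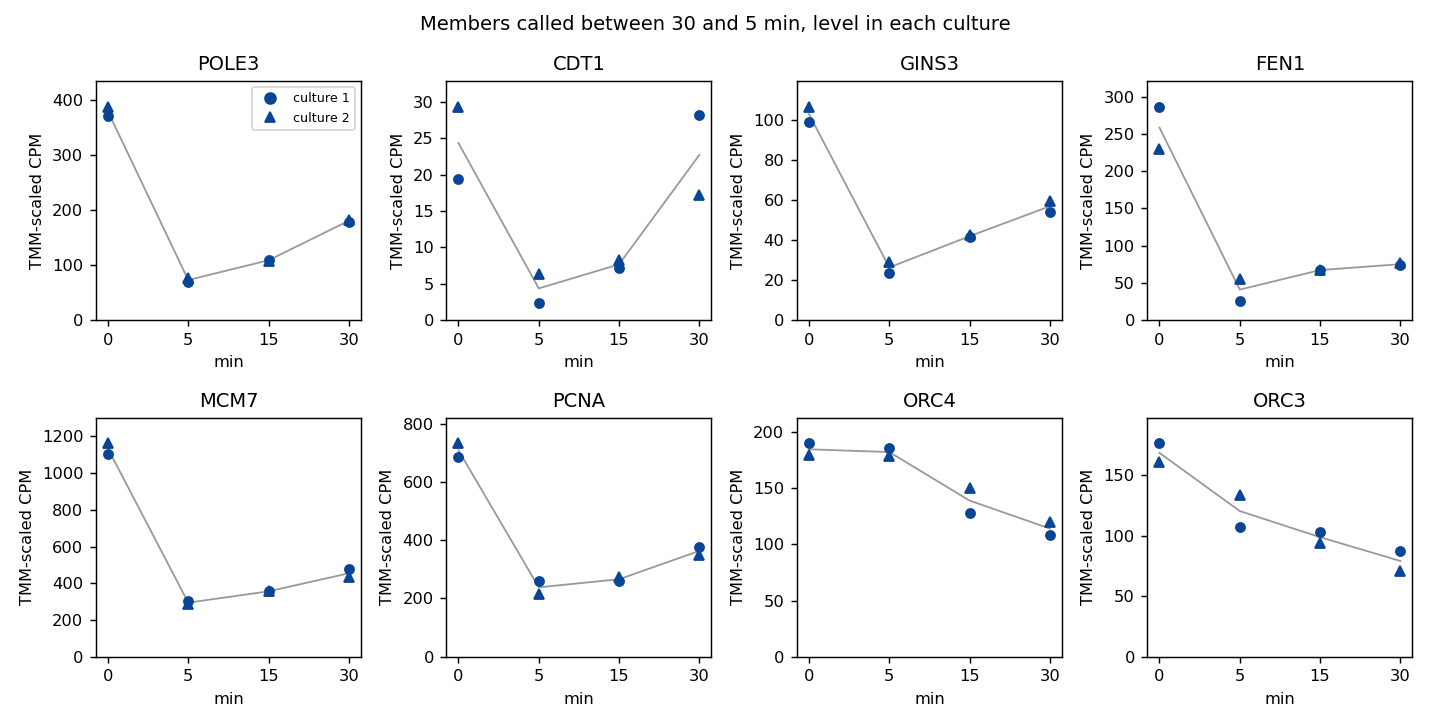
TMM-scaled CPM of the 8 DNA replication genes called between 30 and 5 min, at 0, 5, 15 and 30 min; circles and triangles are cultures 1 and 2 and the line joins the means. POLE3, CDT1, GINS3, FEN1, MCM7 and PCNA have their lowest cultures at 5 min, and ORC4 and ORC3 have theirs at 30 min.

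The members differed widely in gene length, and the changes ran with it. Spans were taken from GENCODE 29 over every annotated isoform of a gene, as lengths only, since that annotation is on another build than the counts. The 44 members had a median span of 32.7 kb. The 7 called higher at all 3 times spanned 43.8 to 332 kb and none was under 20 kb, whereas the 21 called lower at all 3 times had a median of 17.2 kb and 12 were under 20 kb. Across 43 members, Spearman's rho between log2 fold change and span was 0.59 at 5 min, 0.562 at 15 min and 0.405 at 30 min against 0 min, beside 0.558, 0.505 and 0.419 across the 9336 protein-coding genes tested. For 30 min against 5 min it was -0.495 across the members and -0.281 across those genes. These correlations are across genes of the same libraries, which are not independent replicates, and the members' values are close to those of all genes in the comparisons with 0 min.

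POLE3 and FEN1, the shortest members at 3.44 and 4.61 kb, were among those called lower against 0 min and higher at 30 than at 5 min, as were MCM7 (9.21 kb) and PCNA. ORC3 (77.4 kb) and ORC4 (91.2 kb), called lower at 30 than at 5 min, are long. RPA3 (82.1 kb) and GINS3 (111 kb) were called lower at every time despite their long annotated spans, so the relation has exceptions. Exons of 20 of the 44 members overlap those of another annotated gene, in 16 of them on the other strand and in 6 on the same strand. Those on the other strand include MCM7 with AP4M1, POLE3 with C9orf43 and GINS2 with GSE1. Those on the same strand include PRIM1 with NACA and FEN1 with FADS2. Reads of the members and partners on the other strand could not be told apart where the counting ignored strand. For partners on the same strand, strand would not separate the reads in either case.

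**Figure D4:**
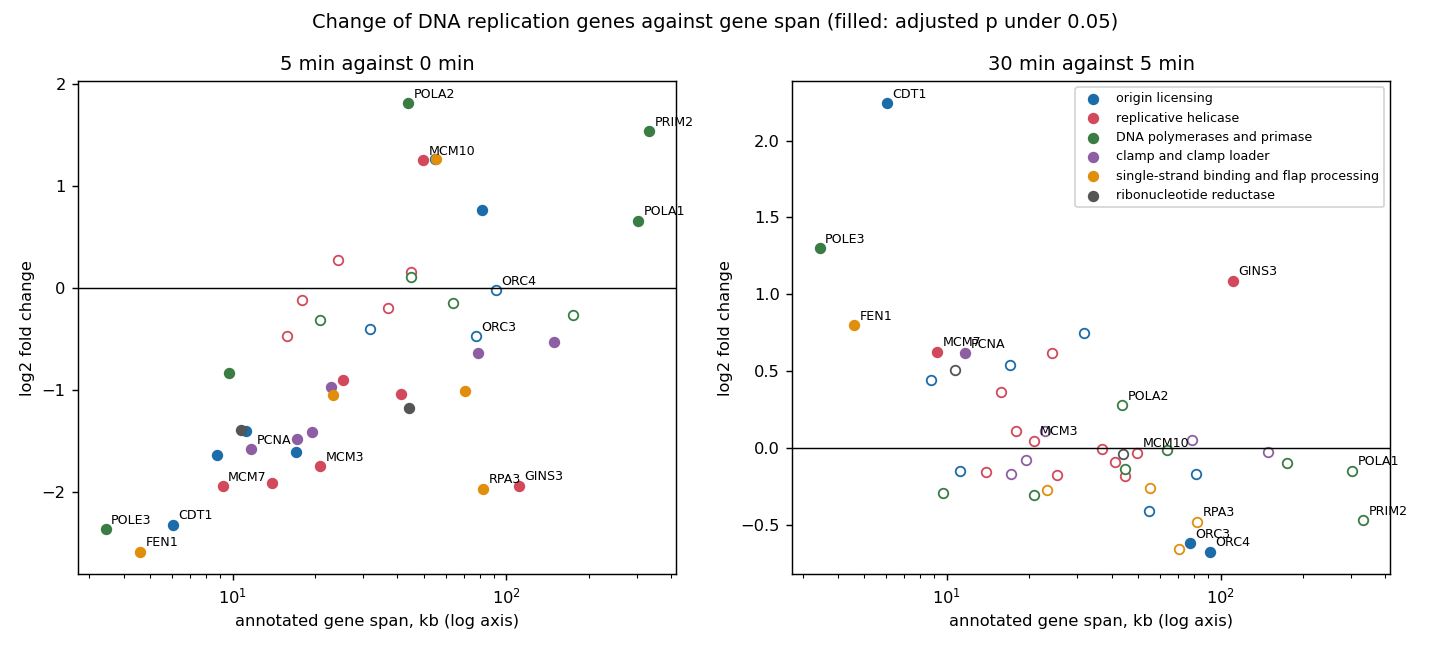
Log2 fold change of the DNA replication genes against annotated gene span in kb on a log axis, for 5 min against 0 min (left) and 30 min against 5 min (right); colours mark roles and filled points have an adjusted p under 0.05. POLE3, FEN1 and CDT1 are short genes at the lower left of the left panel and the upper left of the right panel, while POLA2, PRIM2 and MCM10 are at the upper right of the left panel.

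A wider list of 66 further replication genes, in 7 roles, was set beside the members; 65 were in the table, 64 were tested and 1 was not analysed here. The test called 21 of them higher and 19 lower at 5 min (32.8% and 29.7%, beside 28.7% and 26.0% of all genes). At 15 min it called 14 higher and 20 lower (21.9% and 31.3%, beside 29.8% and 24.6%). At 30 min against 0 min it called 20 higher and 19 lower (31.3% and 29.7%, beside 32.1% and 23.8%), so these shares lay near those of all genes, and their median at 30 min was 0.09 beside 0.35 for all genes. Kinases and adaptors of origin firing held 5 of 10 called higher and 0 lower at 30 min, and 6 of 9 genes of nucleotide supply were called lower, beside 32.1% of all genes higher and 23.8% lower. TICRR, an adaptor of origin firing, averaged 152 ± 23.1 CPM at 30 min and 17.1 ± 2 CPM at 0 min, a change of 3.16 ± 0.29. TK1, the thymidine salvage kinase, averaged 149 ± 43.9 CPM at 30 min and 715 ± 22.6 CPM at 0 min, a change of -2.26 ± 0.19. Both have adjusted p-values under the threshold, 2.53e-11 and 5.93e-12.

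Further large called changes at 30 min against 0 min can be read beside the members. MCM9, a helicase outside the MCM2-7 ring, had a higher level (2.65 ± 0.25), and RNASEH2A, a subunit of the enzyme that removes RNA from DNA, a lower one (-3.13 ± 0.21). E2F3, an E2F factor, was higher (2.95 ± 0.25), and SKP2, a ubiquitin ligase subunit that targets CDK inhibitors, was lower (-2.00 ± 0.24). The clamp unloader ATAD5 was higher (0.92 ± 0.26), and CHTF8, a subunit of an alternative loader, was lower (-1.55 ± 0.61) from few counts. The chromatin assembly genes CHAF1A and ASF1A had changes of 1.01 ± 0.32 and -1.55 ± 0.28. TOP2A, a topoisomerase, was lower (-0.82 ± 0.18).

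At 30 min against 5 min, 3 of the 64 were called higher and 2 lower (4.69% and 3.13%), no more than the 5.88% and 6.52% of all genes. CDK2, the kinase of S phase entry, averaged 47.1 ± 1.37 CPM at 30 min and 21.2 ± 0.0335 CPM at 5 min, a change of 1.15 ± 0.32. E2F7, a repressor of the E2F family, averaged 74.6 ± 11.7 CPM at 30 min and 36.6 ± 11.7 CPM at 5 min, a change of 1.07 ± 0.32. ASF1A changed by 0.98 ± 0.33, so it was above its 5 min level though below that at 0 min. RNASEH2A was lower (-1.11 ± 0.22), as was its partner subunit RNASEH2C (-0.79 ± 0.26). In 15 min against 5 min cells only TICRR was called, lower, and in 30 min against 15 min cells CDC25A was called higher and RNASEH2A lower.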

How the data were processed

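The deposited file holds whole-number counts per gene for 32 libraries; the authors' reads were aligned with STAR to hg19, per the submitters' processing notes. The counting tool, its strand setting and any use of molecular identifiers are not given in the sources used here. Libraries were mapped to cultures by their labels and summed. With R 4.3.3 and edgeR 4.0.16, filterByExpr kept 10439 genes and TMM set the scale. A single quasi-likelihood fit over the 8 cultures gave all 6 comparisons of times, with p-values adjusted over all genes by Benjamini-Hochberg. Each gene alone has 4 residual degrees of freedom, and the fit adds to them by sharing spread across genes. The scripts were tested on simulated counts in which only a small set of genes changed, at 5 min alone. That test does not cover the choice of scale. The members and lists were chosen with earlier results of these data known. Values per culture are given for members called in 1 direction in all 3 comparisons with 0 min, for those called between 30 and 5 min and for the most counted member of each role, and for MCM2, MCM4, CDC45 and RFC3, chosen after their values were seen. Of the other genes, the text names those called between 30 and 5 min and the largest called change of each role and direction at 30 min without overlap and with a mean of at least 10 CPM; TICRR and CDC25A at other times were chosen after their values were seen. 1 gene that this rule names is not reported here. Replicate numbers did not pair the samples: deviations of same-numbered cultures correlated between -0.03 and 0.08. Intervals and floors cover counting error only. DESeq2 1.42.0 and other settings were alternatives. Labels and column headers disagree on the tagmentation number of 4 libraries of 1 culture, which changes no sum.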

Additional observations from a re-analysis of the deposited data

How the results depend on the processing

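The counts of members called were recomputed under RLE size factors, total counts only, no filter on low counts, DESeq2, the replicate block, a fit of only the 2 times compared, 1 library per cDNA, and without each culture in turn. Other counts stayed within 1.5 times the reported ones, and the cause of a change was not tested. With total counts only, 13 members were higher at 5 min, 13 higher and 14 lower at 15 min, and 14 higher and 10 lower at 30 min against 0 min, 0 were lower at 30 than at 5 min, and 2 were higher and 0 lower at 30 than at 15 min. Of all 10439 genes tested, that scaling called 4461, 4901 and 5622 higher at 5, 15 and 30 min against 0 min, and 1307 and 1331 lower at 15 and 30 min. The same scaling reversed RFC1 (0.10, 0.20 and 0.30 at 5, 15 and 30 min), RFC3 (0.20 at 5 and 0.32 at 30 min), ORC3 (0.0054) and RFC2 (0.0082) at 15 min, and ORC4 (0.18), GINS3 (0.028), PRIM1 (0.26) and RFC2 (0.020) at 30 min against 0 min. DESeq2 called 5 higher at 30 min against 0 min. At 30 against 5 min, 5 members were lower with RLE, 0 with no filter, and 1 each under the replicate block, with only the 2 times and with 1 library per cDNA. With only the 2 times, 1 was higher at 15 than at 5 min, and 4 at 30 than at 15 min, as with 1 library per cDNA (4). Leaving out 1 culture gave 1 to 8 higher and 0 to 3 lower at 30 against 5 min, 0 to 1 higher at 15 against 5 min, and 0 to 1 higher and 0 to 1 lower at 30 against 15 min. Some calls against 0 min were lost in a setting other than total counts: POLD2, RFC1, RFC2 and RFC3 at 5 min; MCM2, ORC2, POLA1, CDT1, MCM6, POLD2, RFC1 and RFC2 at 15 min; LIG1, MCM2, ORC2, ORC5, POLA1, GINS3, ORC4, PRIM1, RFC1 and RFC3 at 30 min. The low counts of CDT1 and POLD1 limit what can be read from them.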
